A study of Mus musculus with 2 samples.

Results

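Type I interferon-stimulated genes, the effectors and sensors of the antiviral programme, were examined in myeloid-derived suppressor cells (MDSCs) of LysM-cre, Mettl3fl/fl mice against those of Mettl3fl/fl mice. The genes were chosen by name, as a list of 42 symbols without interferon regulatory factors, STAT factors and interferon-inducible GTPases. The choice rule uses no measured value, but the list was drawn up with earlier results of these data known. Each symbol matched 1 row, so 42 of the 55401 gene rows of the deposited table are described, and all 42 had an average of at least 1 FPKM (fragments per kilobase, a level scaled for gene length and depth). MDSCs are immature myeloid cells that restrain T cells in tumours, and they were taken with magnetic beads from C57BL/6 mice carrying MC38 colon adenocarcinoma. They were then cultured with MC38 cells for 24 h, and poly(A) RNA was sequenced. The tumour label of the LysM-cre sample reads MC39, a difference that is left as it stands. Both groups of 8-week-old mice carried floxed Mettl3 alleles, Mettl3 being the catalytic subunit of the enzyme that places N6-methyladenosine on mRNA. The LysM-cre, Mettl3fl/fl group (1 library) carried in addition a Cre recombinase driven by the lysozyme 2 locus, which is active in neutrophils, monocytes and macrophages and not in lymphocytes, and the Mettl3fl/fl group (1 library) had no Cre. How many animals entered a library is not given in the labels. Since each genotype had a single library, no difference has a replicate check and no p-value is given. Ratios compare these libraries and not the genotypes.

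Type I interferons act through a receptor of the chains IFNAR1 and IFNAR2, whose kinases JAK1 and TYK2 activate transcription factors. A complex that includes STAT2 and IRF9 binds the interferon-stimulated response element (ISRE) in promoters and switches on a set of antiviral genes. Myeloid cells keep a low tonic output of this programme and raise it strongly when nucleic acid sensors or cytokines are engaged.

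The libraries held 59393864 counts (LysM-cre-labelled) and 59506878 counts (floxed control). Mettl3 itself stood at 3.92 FPKM in the LysM-cre-labelled library and at 4.16 FPKM in the control. The ratio of its counts scaled to the library totals (CPM ratio, LysM-cre over control throughout) was 0.945, with an exact 95% interval of 0.876 to 1.02. The row covers the whole gene, and the labels do not name the floxed exons, so this value is no check of the deletion and the library is named below by its label alone. All intervals cover counting error only, since each genotype had 1 library. Where read pairs copied from the same molecule by PCR were counted separately, the intervals are too narrow even for that. Neutrophil markers were present at a summed 11601 FPKM in the LysM-cre-labelled library and 13194 FPKM in the control, while B and plasma cell markers, among them immunoglobulin genes, summed to 15405 and 17394 FPKM in the same order, so lymphoid RNA was present beside that of MDSCs. In such bulk libraries fewer cells of a type and less RNA per cell cannot be told apart.

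The 42 genes stood slightly lower in the LysM-cre-labelled library. In that library 37 of the 42 lay below the control and 5 above it, against 49.8% and 50.2% of the 12526 rows with an average of at least 1 FPKM. The median log2 CPM ratio of the 42 was −0.18, against 0.00 over those rows. The counting interval lay wholly below 1 for 31 genes and wholly above 1 for 3 (Ifi203, Parp9 and Ifi35), against 29.7% and 30.1% of all such rows, and held 1 for the other 8. The differences were mostly small. Only 6 genes (Oasl2, Ifit2, Zbp1, Ifit3, Oas1g and Ifit3b) had a CPM ratio of 0.8 or less, which is 14.3% of the list against 10.5% of all rows and 6.86% of protein-coding rows. None was higher by the same factor, against 11.5% of all rows and 857 of the 10250 protein-coding ones. At 1.5-fold, 1 gene (Oasl2) was lower, against 4.91% of all rows and 249 of the 10250 protein-coding ones. Among the 10250 protein-coding rows 49.5% were lower. Of them, 8682 lay in the same range of mean level as the 42 genes (2.28 to 873 FPKM). Among these 8682 rows 4307 were lower and 4375 higher, and 5.36% had a ratio of 0.8 or less. At the inverse of 0.8 or more stood 574 of the 8682, and 157 were lower by 1.5-fold or more. All 42 genes are protein-coding, so their share at 0.8 or less was above that of comparable rows, on a count of 6 genes. That excess came from the IFIT and OAS families described below, to which all of the 6 but Zbp1 belong. Outside these families 1 of 32 genes (3.125%) stood at 0.8 or less, under the 5.36% of the 8682 rows. Even so, 27 of these 32 lay below the control and 5 above it, at a median of −0.11 (log2). The 42 genes answer to shared regulators, so they are not 42 separate observations.

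**Figure D1:**
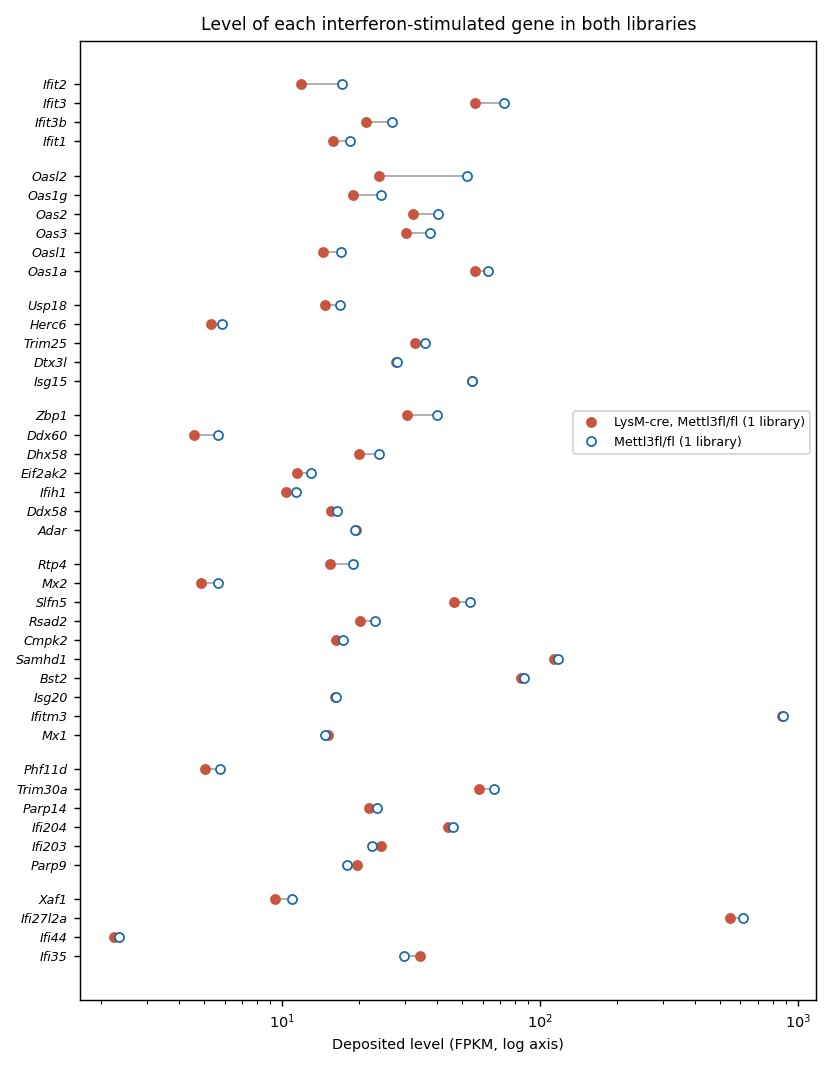
Deposited level in FPKM (log axis) of each of the 42 genes, in the LysM-cre-labelled library (filled points) and in the floxed control library (open points), 1 library each, in blocks by role with the lowest ratio at the top. The filled point lies left of the open one for 37 genes, with the widest gap at Oasl2.

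**Figure D2:**
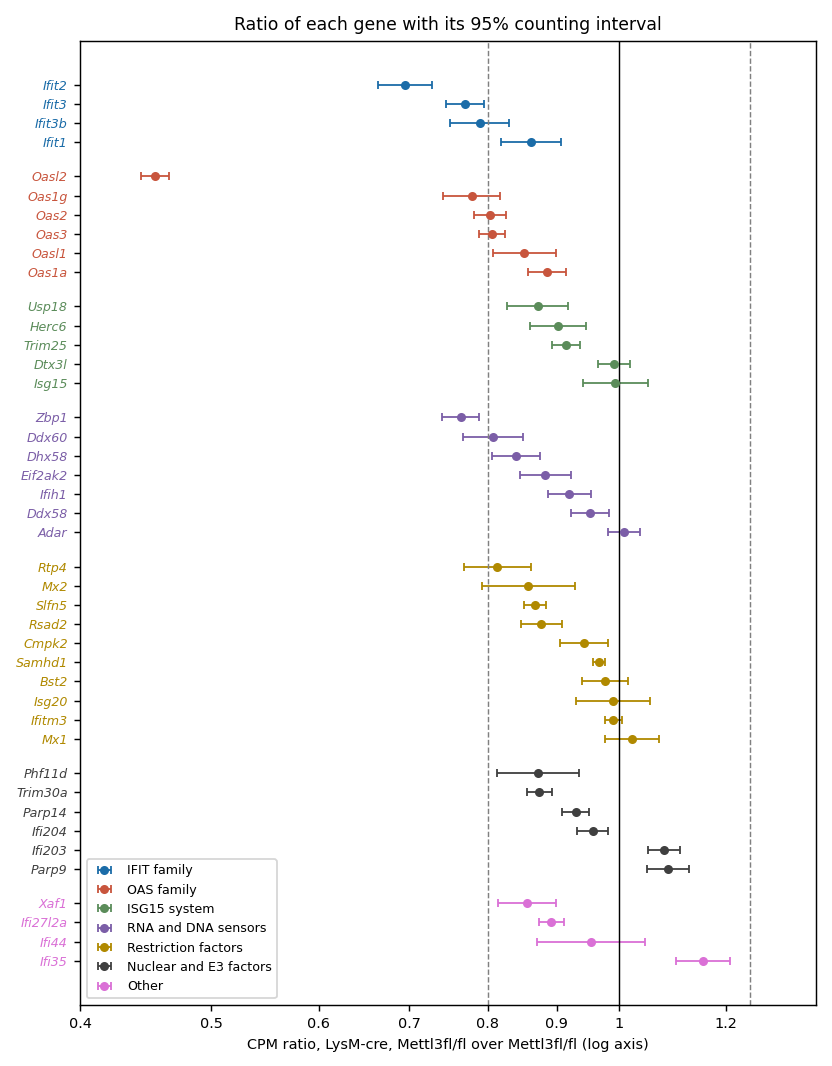
CPM ratio of each gene (log axis, LysM-cre over control) with its exact 95% counting interval, coloured by role. The solid line marks 1 and the dashed lines 0.8 and its inverse. All 10 IFIT and OAS genes lie left of 1, while Ifi203, Parp9 and Ifi35 lie right of it.

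Promoter windows from RefSeq (build GRCm38.p6, the same assembly as mm10, from 250 bases before to 50 after an annotated start) were at hand for 31 of the 42 genes. The others are Mx1, Mx2, Oas2, Usp18, Ifi27l2a, Dhx58, Zbp1, Rtp4, Parp9, Parp14 and Ifi204. An ISRE-type match, defined here as the word GAAA, any 2 bases and GAAA again on either strand, with overlapping matches counted separately, was found in a window of 17 of the 31 genes (54.8%), against 3.99% of the 27025 genes with a window in the table. These are matches of letters and not measured binding. The windows shown are those of the gene with the lowest ratio, of an IFIT gene, of a pair of near-identical OAS genes, of Isg15 as a gene at the same level in both libraries, and of the gene with the highest ratio. Each is written 5′ to 3′ on the strand of the gene, with ISRE-type matches in capitals.
Oasl2 (chr5:114896684-114896983, plus strand): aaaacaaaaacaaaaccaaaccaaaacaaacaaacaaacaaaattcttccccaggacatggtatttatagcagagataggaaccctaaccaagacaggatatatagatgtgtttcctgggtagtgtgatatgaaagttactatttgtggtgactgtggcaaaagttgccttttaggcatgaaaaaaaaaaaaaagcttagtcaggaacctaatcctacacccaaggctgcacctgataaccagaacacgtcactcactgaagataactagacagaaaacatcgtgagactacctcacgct
Ifit3 (chr19:34583279-34583578, plus strand): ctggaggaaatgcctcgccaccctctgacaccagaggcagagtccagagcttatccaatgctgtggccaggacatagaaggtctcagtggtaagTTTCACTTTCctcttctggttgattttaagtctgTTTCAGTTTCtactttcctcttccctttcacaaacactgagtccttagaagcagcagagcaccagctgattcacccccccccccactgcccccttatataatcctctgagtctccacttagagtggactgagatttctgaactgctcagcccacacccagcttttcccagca
Oas1g (chr5:120887564-120887863, minus strand): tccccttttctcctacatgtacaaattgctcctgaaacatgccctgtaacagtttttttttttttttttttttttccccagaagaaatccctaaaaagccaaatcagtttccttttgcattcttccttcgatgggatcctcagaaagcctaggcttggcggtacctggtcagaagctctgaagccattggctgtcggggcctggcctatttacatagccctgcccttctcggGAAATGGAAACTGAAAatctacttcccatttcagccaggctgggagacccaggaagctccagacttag
Oas1a (chr5:120907476-120907775, minus strand): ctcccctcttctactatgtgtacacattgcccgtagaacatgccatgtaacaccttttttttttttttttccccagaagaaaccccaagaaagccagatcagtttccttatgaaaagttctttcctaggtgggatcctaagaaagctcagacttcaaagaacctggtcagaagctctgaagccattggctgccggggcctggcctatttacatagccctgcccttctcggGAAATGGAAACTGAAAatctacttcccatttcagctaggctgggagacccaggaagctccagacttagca
Isg15 (chr4:156200769-156201068, minus strand): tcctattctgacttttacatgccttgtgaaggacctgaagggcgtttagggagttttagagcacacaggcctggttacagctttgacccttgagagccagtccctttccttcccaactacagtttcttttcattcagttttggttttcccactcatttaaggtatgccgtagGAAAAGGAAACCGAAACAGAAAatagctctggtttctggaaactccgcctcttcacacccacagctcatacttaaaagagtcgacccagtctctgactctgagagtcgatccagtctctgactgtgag
Ifi35 (chr11:101448162-101448461, plus strand): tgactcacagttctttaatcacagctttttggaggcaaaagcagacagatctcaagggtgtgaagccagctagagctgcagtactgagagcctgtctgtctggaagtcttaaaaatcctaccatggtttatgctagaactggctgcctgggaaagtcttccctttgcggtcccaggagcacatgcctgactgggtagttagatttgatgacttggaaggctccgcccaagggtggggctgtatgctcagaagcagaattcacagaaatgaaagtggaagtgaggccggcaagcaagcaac
Ifit3 held 2 matches, Oas1g and Oas1a 2 overlapping ones that spell the same run, and Isg15 3 overlapping ones. Oasl2 and Ifi35 held none in these windows, which says nothing about sites elsewhere. The number of matches went only loosely with the ratio. Members with 2 or more matches (9 genes) had a median CPM ratio of 0.862 (0.770 to 0.995), those with 1 match (8 genes) 0.880 (0.806 to 1.08) and those with no match (14 genes) 0.928 (0.454 to 1.15), and the ranges overlap over most of their width.

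**Figure D3:**
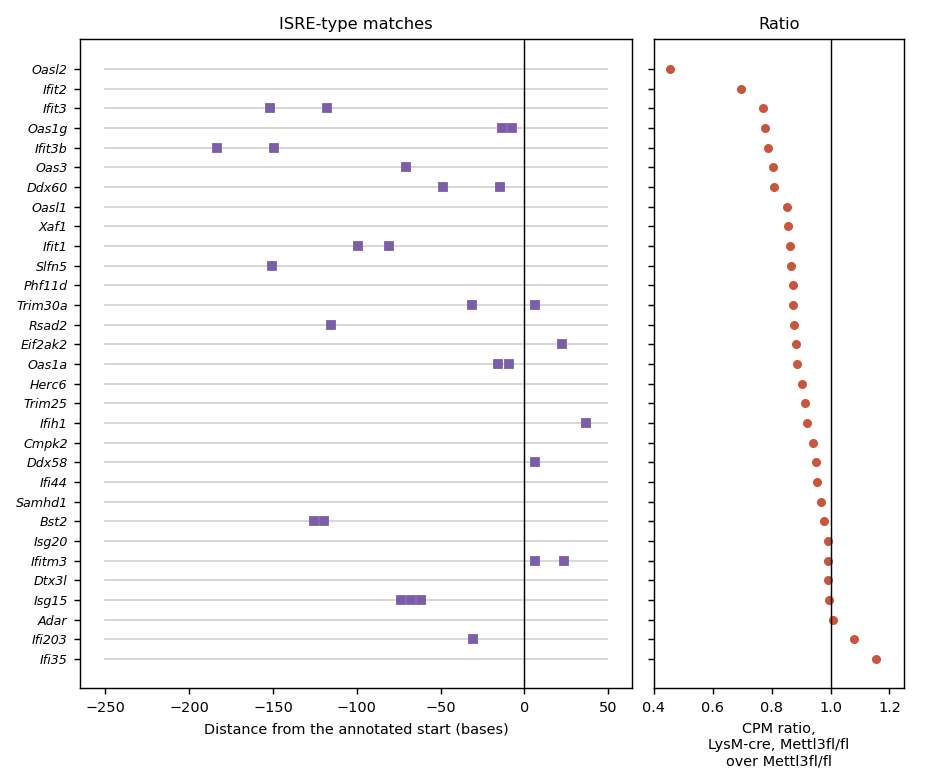
Left, distance of each ISRE-type match from the annotated start (0) for the 31 genes with a promoter window, ordered by ratio with the lowest at the top; grey lines show the searched window, and windows of a gene with several starts share a row. Right, CPM ratio (LysM-cre over control) of the same genes. Matches occur from top to bottom of the order, and Oasl2 and Ifit2 at the top have none.

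The IFIT genes, whose proteins bind viral RNA and hold back its translation, lie together on chromosome 19 (mm10). All 4 of the list were lower in the LysM-cre-labelled library. Ifit2 (ENSMUSG00000045932, 34550694 to 34576419), which in cells also promotes apoptosis, stood at 11.9 FPKM in that library and 17.1 FPKM in the control (3120 and 4495 counts). Its CPM ratio was 0.695 (0.664 to 0.728). Ifit3 (34583531 to 34588731), a partner protein of the family, had the highest level of the 4 at 56.0 and 72.7 FPKM in the same order of libraries, with a ratio of 0.770 (0.746 to 0.796). Its mouse duplicate Ifit3b stood at 21.1 FPKM in the LysM-cre-labelled library and 26.8 FPKM in the control, a ratio of 0.789 (0.751 to 0.829). Ifit1, which recognises RNA lacking the methylation of host caps, differed least, at 15.8 FPKM against 18.3 FPKM in the control (ratio 0.862, 0.819 to 0.907). The summed counts of these 4 genes gave a ratio of 0.772. The interval of Ifit2 lies below those of the other listed IFIT genes, so the 4 did not shift by 1 common factor within counting error.

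The oligoadenylate synthetase (OAS) genes encode enzymes that answer double-stranded RNA by making short oligoadenylates, which activate RNase L. All 6 of the list were lower in the LysM-cre-labelled library, and Oasl2 stood apart from the other 41 genes. Oasl2 (ENSMUSG00000029561, chromosome 5, 114896936 to 114912234, plus strand, mm10) encodes a synthetase relative with ubiquitin-like domains. It stood at 23.7 FPKM in that library and 52.2 FPKM in the control, on 10080 and 22225 counts (ratio 0.454, 0.444 to 0.465). Of 10250 protein-coding rows with an average of at least 1 FPKM, 68 had a ratio as low or lower (0.663%). No other row of the table overlaps Oasl2 on either strand, and none of its 150-base stretches (the read length) occurs in a transcript of another gene in GENCODE M21. Its neighbour Oasl1 (114923240 to 114937915), known in mice for holding back Irf7 translation, stood at 14.4 FPKM in the LysM-cre-labelled library and 17.0 FPKM in the control (ratio 0.852, 0.807 to 0.899), far nearer to level than Oasl2. The remaining synthetases of the list lie in a cluster farther along the chromosome (120730333 to 120907521). Among them Oas2 stood at 32.4 and 40.3 FPKM and Oas3 at 30.3 and 37.5 FPKM (LysM-cre-labelled, then control), with nearly equal ratios of 0.803 (0.782 to 0.825) and 0.806 (0.788 to 0.824). Oas1g stood at 19.0 FPKM in the LysM-cre-labelled library and 24.4 FPKM in the control (0.779, 0.742 to 0.817), and Oas1a at 56.0 and 63.3 FPKM (0.885, 0.857 to 0.914). The last pair share 32.4% of the 150-base stretches of Oas1a, and how the authors assigned reads that fit both is not given, so the split between these rows is uncertain. Their promoter windows above carry the same ISRE-type run.

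Genes of the ISG15 system, a ubiquitin-like tag and the enzymes around it, and the ligase gene Dtx3l grouped with them ran from level to modestly lower. Isg15, the tag itself and one of the most widely used readouts of interferon action, was level at 54.6 FPKM in the LysM-cre-labelled library and 54.9 FPKM in the control (2559 and 2578 counts, ratio 0.995, 0.941 to 1.05). Usp18, which removes the tag and also dampens the interferon receptor, stood at 14.7 against 16.8 FPKM in the control (0.871, 0.828 to 0.918). Herc6, the main ISG15 ligase of mice, stood at 5.30 FPKM in the LysM-cre-labelled library and 5.88 FPKM in the control (0.902, 0.860 to 0.946). Trim25, a ligase that activates RIG-I, stood at 32.8 and 35.9 FPKM in the same order (0.914, 0.892 to 0.936). Dtx3l, the ligase partner of Parp9, was level (27.7 FPKM against 27.9 FPKM in the control, 0.993, 0.966 to 1.02). So the tag and its removing enzyme did not move by the same factor, their intervals being separate.

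Sensors of foreign nucleic acid followed a gradient. Zbp1, a sensor of Z-form nucleic acid that can trigger necroptosis, was the lowest at 30.6 FPKM in the LysM-cre-labelled library and 40.1 FPKM in the control (7211 and 9455 counts, ratio 0.764, 0.741 to 0.788). The helicase gene Ddx60 stood at 4.59 FPKM against 5.68 FPKM in the control (0.807, 0.767 to 0.850). For the RIG-I-like receptors, Dhx58 (the regulator LGP2) stood at 20.0 and 23.8 FPKM in the LysM-cre-labelled library and the control (0.839, 0.806 to 0.874). Ifih1 (the sensor MDA5) stood at 10.4 and 11.3 FPKM (0.919, 0.887 to 0.953) and Ddx58 (RIG-I) at 15.6 and 16.3 FPKM (0.952, 0.922 to 0.983). The LGP2 gene thus lay below both sensor genes beyond counting error. Eif2ak2, the kinase PKR that halts translation on double-stranded RNA, stood at 11.5 FPKM on 3918 counts, against 4448 counts in the control (0.883, 0.845 to 0.921). Adar, which edits adenosine to inosine in double-stranded RNA, was level at 19.3 FPKM in the LysM-cre-labelled library and 19.2 FPKM in the control (1.01, 0.982 to 1.04). Its row sums an interferon-induced and a constitutive isoform, which the table does not separate.

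Restriction factors, which block single steps of viral growth, held the most abundant transcript of the list and 4 of the 8 genes whose interval held 1. Ifitm3, which hinders viral fusion at endosomes, stood at 869 FPKM in the LysM-cre-labelled library and 876 FPKM in the control (0.991, 0.977 to 1.01). Bst2 (tetherin, which holds budding virus at the membrane) stood at 84.6 and 86.6 FPKM (0.977, 0.940 to 1.02), and the exonuclease gene Isg20 at 16.1 and 16.3 FPKM (0.991, 0.931 to 1.05), the LysM-cre-labelled library first. Samhd1, which breaks down the nucleotides that reverse transcription needs, stood at 114 and 117 FPKM. On 69335 and 71807 counts even its small difference lay beyond counting error (0.967, 0.957 to 0.978). The adjacent and divergent genes Rsad2 (viperin, which makes a chain-terminating nucleotide) and Cmpk2 (a mitochondrial nucleotide kinase) on chromosome 12 stood at 20.2 and 16.3 FPKM in the LysM-cre-labelled library, against 23.0 and 17.3 FPKM in the control. Their ratios were 0.877 (0.846 to 0.908) and 0.942 (0.904 to 0.981), with intervals that overlap only at their ends. Rtp4, a chaperone of receptors with antiviral action, stood at 15.3 against 18.8 FPKM (0.814, 0.769 to 0.861) and the Schlafen gene Slfn5 at 46.7 against 53.8 FPKM (0.868, 0.851 to 0.884). The dynamin-like Mx genes, next to each other on chromosome 16, did not move together, Mx2 being lower and Mx1 level within counting error. Mx2 stood at 4.85 FPKM in the LysM-cre-labelled library and 5.66 FPKM in the control (0.858, 0.792 to 0.928). Mx1, which carries a disabling deletion in C57BL/6 mice, stood at 15.1 and 14.7 FPKM (1.02, 0.978 to 1.07).

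Nuclear factors and ligases were mixed. The ADP-ribosyltransferase genes Parp14 and Parp9 lie on either side of Dtx3l on chromosome 16. Parp14 stood at 21.8 FPKM in the LysM-cre-labelled library and 23.4 FPKM in the control (0.929, 0.908 to 0.952), while Parp9 was higher at 19.6 against 18.0 FPKM (1.09, 1.05 to 1.13). The ends of Parp9 and Dtx3l overlap on opposite strands, and how strand was used in counting is not given. Of the DNA-binding p200 family, Ifi203 was higher at 24.3 FPKM against 22.5 FPKM in the control (1.08, 1.05 to 1.11), and Ifi204 lower at 44.1 against 46.1 FPKM (0.957, 0.931 to 0.983). Trim30a, a brake on Toll-like receptor signalling, stood at 58.1 and 66.5 FPKM in the LysM-cre-labelled library and the control (0.873, 0.855 to 0.892), and Phf11d, which encodes a PHD finger protein, at 5.02 and 5.77 FPKM (0.871, 0.813 to 0.934). Of the remaining genes, Ifi27l2a, a small hydrophobic protein and the second most abundant of the list, stood at 545 FPKM in the LysM-cre-labelled library and 611 FPKM in the control (0.892, 0.873 to 0.910). The pro-apoptotic gene Xaf1 stood at 9.39 against 11.0 FPKM (0.856, 0.814 to 0.899). Ifi44 had the lowest level of all 42 genes (2.23 against 2.34 FPKM) and an interval that held 1 (0.954, 0.870 to 1.05). Ifi35, whose protein pairs with NMI, had the highest ratio, at 34.4 FPKM in the LysM-cre-labelled library and 29.8 FPKM in the control (1.15, 1.10 to 1.21).

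By position, 17 of the 42 genes lay in 6 loci that held more than 1 of them within 100000 bases, and 25 lay alone. The listed genes of the IFIT and OAS loci were all lower. The Mx locus and that of Parp14, Dtx3l and Parp9 held ratios on both sides of 1, though the interval of Mx1 held 1. Genes outside the 42 lie in the same stretches. Ifit1bl1 (0.955, 0.889 to 1.02), Ifit1bl2 (0.965, 0.876 to 1.06) and Oas1b (0.961, 0.864 to 1.07) had intervals that held 1, and Oas1c was lower (0.789, 0.712 to 0.874). For 31 genes no 150-base stretch of the longest coding transcript occurred in another gene. The largest shares were those of Oas1a and Oas1g, of Ifit3 with Ifit3b (18.5%) and of Herc6 with the overlapping row Gm45193 (17.9%). Summing the counts of rows that overlap on the same strand moved no ratio of the 42 genes outside its interval.

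Upstream of these genes the lists of receptor, signalling and induction genes did not show the same common direction. Of 21 interferon genes none reached a mean of 1 FPKM. No count was found in either library for 18 of them, among them every Ifna gene listed, which allows up to 3 counts per library each. Ifnb1, the first interferon made after sensing, had 4 counts in the LysM-cre-labelled library and 0 in the control, Ifnk had 0 and 15, and Ifng, which encodes the type II interferon, had 60 and 65. Of 12 receptor and signalling genes, 5 were lower and 7 higher (median log2 CPM ratio 0.01). At or beyond 0.8 or its inverse stood 1 lower (8.33%) and 1 higher, against 10.5% and 11.5% of all rows with an average of at least 1 FPKM. These 12 join receptor, kinase and transcription factor genes to regulators of the signal, some of them inhibitors, so the tally is no measure of signalling. The regulators were Socs1 (ratio 1.02), Socs3 (1.04), Pias1 (1.01), Ptpn11 (1.01) and Ptpn6 (0.937). Ifnar1 stood at 23.3 FPKM in the LysM-cre-labelled library and 18.3 FPKM in the control (ratio 1.27, 1.23 to 1.31), and Ifnar2 at 54.0 and 51.8 FPKM (1.04, 1.02 to 1.07). The kinase genes Jak1 and Tyk2 had ratios of 0.977 (0.964 to 0.990) and 0.959 (0.933 to 0.987). Of the ISRE-binding complex, Stat2 was lower at 16.0 FPKM in the LysM-cre-labelled library against 19.7 FPKM in the control (0.811, 0.784 to 0.838) and Irf9 lower at 17.7 against 24.9 FPKM (0.710, 0.688 to 0.734). With the counts of Rnf31, which overlaps Irf9 on the same strand, the Irf9 ratio was 0.822. Of 22 genes that lead to interferon production, 9 were lower and 13 higher (median 0.03). At or beyond 0.8 or its inverse stood 1 lower (4.55%) and 3 higher, against the same 10.5% and 11.5% of all rows. Azi2, an adaptor of the kinase TBK1, stood at 9.30 against 5.23 FPKM (1.77, 1.68 to 1.87) and Traf3, another adaptor, at 4.70 against 3.49 FPKM (1.34, 1.26 to 1.43). The DNA exonuclease gene Trex1 stood at 46.0 FPKM in the LysM-cre-labelled library and 70.5 FPKM in the control (0.653, 0.625 to 0.681). With the counts of Atrip, which overlaps Trex1 on the same strand, the Trex1 ratio was 0.703. Ticam1, the adaptor TRIF, stood at 10.6 FPKM in the LysM-cre-labelled library and 8.43 FPKM in the control.

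A second list of 66 interferon-stimulated genes outside the 42 pointed the same way with a smaller shift. Of its 64 genes with an average of at least 1 FPKM, 43 (67.2%) were lower, against 49.8% of all such rows, and 21 higher. Their median log2 CPM ratio was −0.08. At 0.8 or less stood 6 of them (9.38%), against 10.5% of all such rows and 6.86% of protein-coding ones. At its inverse or more stood 1, against 11.5% of all such rows and 857 of the 10250 protein-coding ones. Trim21, an antibody receptor of the cytosol, stood at 5.34 FPKM in the LysM-cre-labelled library and 9.14 FPKM in the control (0.584, 0.545 to 0.625). The p200 gene Ifi202b stood at 65.8 and 103 FPKM (0.636, 0.618 to 0.655) and the Schlafen gene Slfn8 at 19.4 and 27.1 FPKM (0.716, 0.691 to 0.741). Lgals3bp, a secreted glycoprotein, went the other way at 138 against 82.9 FPKM (1.66, 1.63 to 1.69). Interferon-inducible GTPases, which answer mainly to interferon gamma, were spread more widely. Of 18 with an average of at least 1 FPKM, 11 (61.1%) were lower and 7 higher (median −0.09). At or beyond 0.8 or its inverse stood 3 lower (16.7%) and 2 higher, against the same 10.5% and 11.5% of all rows. Ifi47 stood at 15.6 FPKM in the LysM-cre-labelled library and 39.8 FPKM in the control (0.391, 0.373 to 0.409), below the ratio of Oasl2. Gbp2b stood at 5.16 and 11.5 FPKM (0.449, 0.416 to 0.485), with an interval that held the ratio of Oasl2. Gbp8 was lower at 25.4 against 32.8 FPKM (0.774, 0.748 to 0.801). Iigp1 went the other way at 4.87 against 3.71 FPKM (1.31, 1.23 to 1.41). The differences between these lists were not tested.

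**Figure D4:**
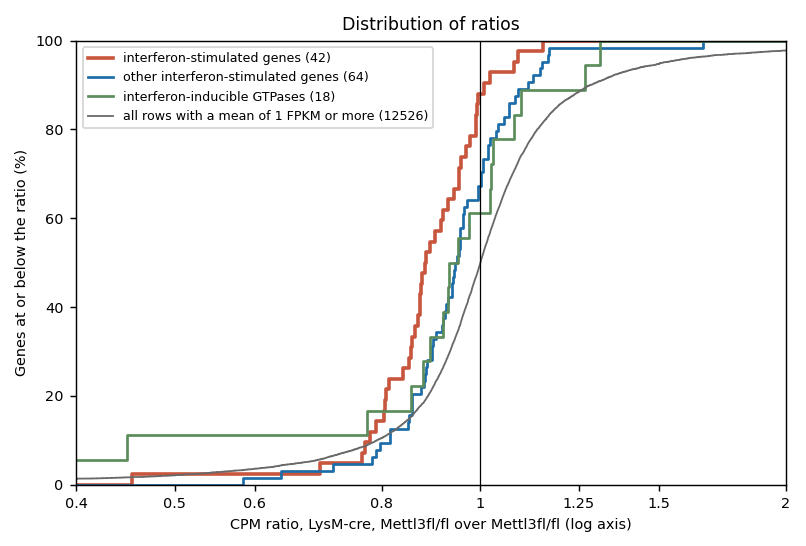
Share of genes (%) at or below each CPM ratio (log axis, LysM-cre over control) for the 42 interferon-stimulated genes, for 64 other interferon-stimulated genes, for 18 GTPases and for all 12526 rows with an average of at least 1 FPKM; ratios beyond the axis are counted but not shown. At a ratio of 1 the curve of the 42 genes has reached 37 of 42, while that of all rows stands near 49.8%.

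Markers of cell types differed as well. Of 15 neutrophil markers 11 were lower and 4 higher in the LysM-cre-labelled library (median log2 CPM ratio −0.26), and Ly6g stood at 31.3 FPKM against 44.5 FPKM in the control. Of 12 B and plasma cell markers 11 were lower and 1 higher (median −0.10), with Ighm at 1360 and 2848 FPKM and Jchain at 555 and 255 FPKM. Macrophage markers were mostly higher (11 of 12, median 0.15), as were monocyte markers (6 of 10, median 0.11). Of 8 eosinophil markers 7 were higher beyond counting error and 1 was level (median 0.63). Plasmacytoid dendritic cells are known as the main makers of interferon alpha. Their 10 markers summed to 130 FPKM in the LysM-cre-labelled library and 157 FPKM in the control. Without Irf8, which other myeloid and B cells also express and which stood at 21.5 and 45.7 FPKM, the other 9 summed to 108 and 112 FPKM. Ly6d alone supplied 58.7 and 63.8 FPKM of these sums, so they say little about the other markers. Of the 9, 5 were lower and 4 higher, with ratios from 0.886 (Runx2) to 1.70 (Klk1). Siglech, a defining marker, was level at 5.34 and 5.44 FPKM. No marker of these lists was at 0 in both libraries. The part of these cell mixtures in the lower level of the interferon-stimulated genes was not tested.

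**Figure D5:**
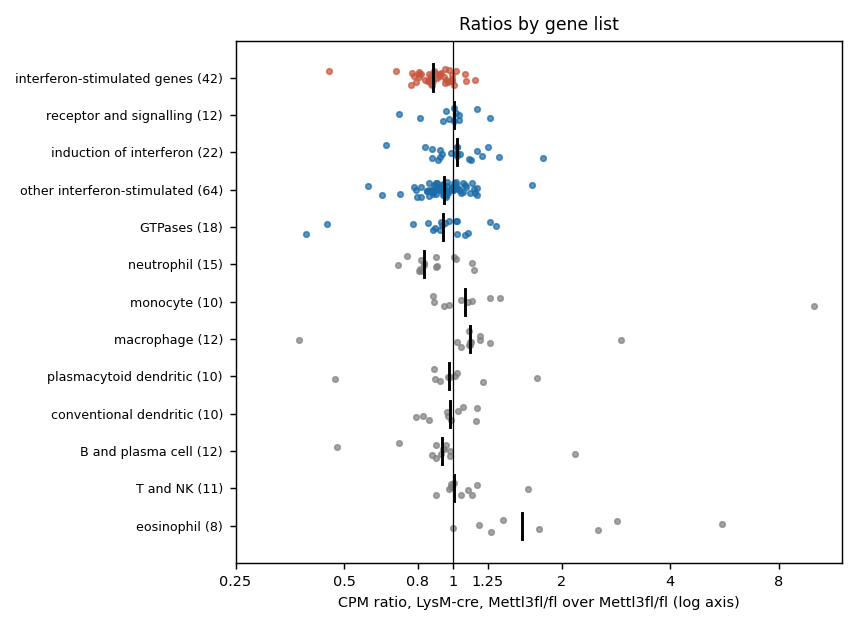
CPM ratio (log axis, LysM-cre over control) of every gene with an average of at least 1 FPKM in the interferon-stimulated list (top), in 4 lists of the interferon system and in 8 lists of cell type markers, 1 point a gene, with the median as a bar and the number of genes in brackets. The 42 genes form a narrow band mostly left of 1, while the receptor and induction lists centre near 1 and the neutrophil list lies farther left.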

How the data were processed

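Gene expression was measured by RNA-seq in 2 MDSC libraries, with groups taken from the genotype labels. The submitters' processing notes name build mm10, StringTie 1.3.4d, HISAT2 2.0.4, cutadapt 1.9, DESeq2 and edgeR, whose roles are not given here. The deposited table holds whole-number counts per gene row, not normalized, and FPKM values that the authors scaled for depth and length, per the file headers. An FPKM of 0.0001, which stands where the count is 0, was read as 0. The 8 columns of 4 libraries with no label were not used.

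The CPM ratio is the count in the LysM-cre-labelled library over the control count, each divided by its library total. Its exact (Clopper-Pearson) 95% interval covers counting error only, and at 59393864 and 59506878 counts it spans about ±0.05 (log2) for a typical member (median 0.0541). Background shares used rows with an average of at least 1 FPKM. With 1 library per genotype no test was made. The members and all lists (305 symbols, 302 matched directly and 3 by an older symbol through RefSeq) were chosen with earlier results of these data known. The genes named are all members, Mettl3, the receptor and signalling genes apart from 1 that is not reported here, and up to 4 genes of each other list with the largest absolute ratio. Interferon genes, summed cell type markers, Siglech, Gm45193, Rnf31 and Atrip were named for their role or overlap. Ly6g, Ighm, Jchain, Ly6d, Ifit1bl1, Ifit1bl2, Oas1b and Oas1c were picked after their values were seen. Alternatives were TMM and median-ratio scaling, FPKM with a pseudocount of 1 or 0.1, other minimums, summed overlapping rows and totals without immunoglobulin and haemoglobin rows. The interval and the fold rule were tested on simulated data. Transcripts were those of GENCODE M21 and promoters those of RefSeq. Tools were edgeR 4.0.16 (R 4.3.3), scipy 1.17.1, pandas 2.3.3, numpy 2.4.6 and matplotlib 3.10.9 (Python 3.11.15).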

Additional observations from a re-analysis of the deposited data

How the results depend on the processing

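The count of genes lower in the LysM-cre-labelled library stayed at 37 of 42 under TMM and median-ratio scaling, FPKM with a pseudocount of 1 or 0.1, no minimum level, summed overlapping rows and library totals without immunoglobulin and haemoglobin rows. It was 36 with a minimum mean of 5 FPKM and 34 among the 39 genes without a same-strand overlap, since fewer genes entered. The median log2 ratio ran from −0.18 to −0.17 over these 9 settings. The number at 0.8 or less was 6 in each of them and that at its inverse or more 0. At a fold of 1.5, by the construction of a stricter rule, 1 gene was lower and 0 higher. None of the 42 single ratios left its counting interval with FPKM + 1, TMM scaling or overlapping rows summed. No paired analysis was possible because each genotype had 1 library. These settings bear on scaling and counting only. At this depth a difference of a few percent is not detectable for genes with few counts such as Ifi44, and variation between mice or cultures was not measured.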

Other observations

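The ISRE-type match was also looked up among the other genes with a promoter window and an average of at least 1 FPKM. Of 347 such genes outside the 42 with at least 1 match, 180 (51.9%) were lower in the LysM-cre-labelled library, against 49.8% of 8159 without a match. Among the 324 with 1 match 165 (50.9%) were lower, 2 of them with no count in that library, and among the 23 with 2 or more matches 15 (65.2%) were lower, with a median CPM ratio of 0.963. A single match thus went with no common direction, and the group with several matches is small.

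The longest coding transcripts of the 42 genes had a median length of 3016.5 bases and a median of 1.04 GGACT words (the commonest core of the N6-methyladenosine consensus) per kilobase, against 3006 bases and 1.05 in 10243 protein-coding genes with an average of at least 1 FPKM. Ifit3b, Ifitm3, Mx1, Mx2 and Rtp4 held none in these transcripts, and Ifi27l2a the most at 4.32 per kilobase. Across the 42 genes, which are not independent and share the same 2 libraries, Spearman's rho between the GGACT density and the CPM ratio was 0.25, that between the mean level and the ratio 0.08, and that between transcript length and the ratio 0.01. A word in a transcript is not a measured methylation site, and no methylation data were analysed here.

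Oasl2 changed its place among the OAS genes. In the LysM-cre-labelled library its level (23.7 FPKM) lay below those of Oas1a, Oas2 and Oas3, whereas in the control its level (52.2 FPKM) lay below that of Oas1a alone.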
